A study of Mus musculus with 14 samples.

Results

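The D and E cyclins and the Cdk inhibitors were followed in Notch1+ cells and in whole retina of the mouse on day 14 of gestation (E14) and on the day of birth (P0). The 10 genes were Ccnd1, Ccnd2, Ccnd3, Ccne1, Ccne2, Cdkn1a, Cdkn1b, Cdkn1c, Cdkn2c and Cdkn2d, out of 15957 genes that could be given to a probe of the array. Every mouse probe whose transcript identifier, or whose gene ID in the supplementary tables of the study, led to one of these genes was taken, which gave 22 probes. Of these, 16 were above background on at least 3 arrays and were tested, and they covered 9 of the 10 genes. The 6 probes that were not tested were both Ccne2 probes (mMR027973 and mMC020575), Ccnd3 mMR030262 and mMR027188, Cdkn1b mMR029688 and Cdkn2d mMA034168.

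There were 3 samples each of Notch1+ cells and of whole retina (E14 Retina) from E14, and 4 samples each of Notch1+ cells and of whole retina (P0 Retina) from P0, all from C57BL/6 mice with no genetic change. For each preparation of Notch1+ cells, retinas from many eyes were pooled and dissociated with papain. The Notch1+ cells were those that an antibody to Notch1 and magnetic beads held back, so that they were selected on a surface protein and not on division. The methods do not describe pooling or dissociation for the whole retina samples. Dissociation, sorting and group can therefore not be told apart in the contrasts of Notch1+ cells with whole retina. The whole retina samples contain the Notch1+ cells as well. RNA of each sample was amplified, labeled and hybridized alone to 1 array of 70-mer oligonucleotides.

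Cyclins of the D type partner Cdk4 and Cdk6 and cyclins of the E type partner Cdk2, and the kinases they switch on phosphorylate the retinoblastoma protein and carry cells from G1 into S phase. The inhibitors fall into the Cip/Kip family (Cdkn1a, Cdkn1b and Cdkn1c), which bind cyclin and Cdk complexes of several kinds, and the INK4 family (Cdkn2c and Cdkn2d among them), which bind Cdk4 and Cdk6 alone. In the retina, Ccnd1 is the main D cyclin of dividing progenitors, and Cdkn1b, Cdkn1c and Cdkn2d are known from progenitors that leave the cell cycle and from young neurons.

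Cdkn1a and Cdkn2c, the inhibitors whose difference between E14 and P0 whole retina was called in every alternative run, are shown here by the DNA around their starts. The files do not give the sequences of the array probes. RefSeq windows of GRCm38.p6, from 250 bases before to 50 bases after an annotated start, were matched by symbol for 6 of the 10 genes. The windows were searched for the GC box GGGCGG on both strands, which the capitals mark. It was in 35.7% of all 32851 windows of the table and in 7 of the 9 windows of these genes. Cdkn1a has a window with 2 matches at chr17:29093519-29093818 (plus strand) and another start with none, and Cdkn2c has a window with 4 matches at chr4:109666707-109667006 (minus strand) and another start with none.
Cdkn1a: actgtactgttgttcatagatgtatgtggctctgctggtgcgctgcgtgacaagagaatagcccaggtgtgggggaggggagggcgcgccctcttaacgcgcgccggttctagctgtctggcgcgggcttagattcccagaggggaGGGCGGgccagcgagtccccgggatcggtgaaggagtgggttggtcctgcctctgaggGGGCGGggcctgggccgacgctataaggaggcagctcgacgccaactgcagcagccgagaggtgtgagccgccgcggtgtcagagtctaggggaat
Cdkn2c: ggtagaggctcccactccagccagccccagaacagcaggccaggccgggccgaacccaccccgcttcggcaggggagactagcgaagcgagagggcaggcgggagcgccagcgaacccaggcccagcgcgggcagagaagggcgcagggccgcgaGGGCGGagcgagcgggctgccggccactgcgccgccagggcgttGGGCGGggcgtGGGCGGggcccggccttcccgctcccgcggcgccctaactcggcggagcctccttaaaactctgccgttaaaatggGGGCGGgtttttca
A match describes these letters and not a bound site, and no measurement here bears on the promoters themselves.

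Depth and labels were checked before the members were compared. Between 9332 and 13547 of 34312 mouse probes were above background on an array, and log2 intensities of arrays within a group correlated at 0.904 to 0.949. Notch1 itself (log2 difference 1.49 at E14 and 1.39 at P0) and its target Hes5 (2.34 and 2.84) were both called higher in the Notch1+ samples. All 6 E14 arrays share 1 scan day and each P0 group has its own, so that at P0 and between stages the scan day and the group cannot be told apart. A mark that the slide was dipped again is on 10 of the 14 arrays and is missing from E14 Notch1+ replicate 2 and P0 Notch1+ replicates 1, 3 and 4. Genes of ganglion cells and young neurons were lower in Notch1+ cells, with 8 of 10 tested called lower and 0 called higher at each stage. Their summed intensity was 18412 to 19366 in E14 Notch1+ cells against 43467 to 51806 in E14 Retina, and 8636 to 13761 in P0 Notch1+ cells against 12990 to 21412 in P0 Retina. Most of the Notch1+ sums came from Tubb3, which was called at neither stage. Its means were 14856 in E14 Notch1+ cells and 16661 in E14 Retina, and 9192 in P0 Notch1+ cells and 7042 in P0 Retina. In P0 Notch1+ cells Sncg, Pou4f2, Isl1, Nefm and Gap43 were above background on no array. At P0, 6 of 8 amacrine and horizontal cell genes and 5 of 6 photoreceptor genes were called lower in Notch1+ cells and 0 higher. At E14 2 of the 8 amacrine and horizontal cell genes were called lower and 1 higher, and 1 of the 6 photoreceptor genes lower and 0 higher. Of 7 endothelial genes, 2 were called higher in P0 Notch1+ cells and 0 at E14. Their median log2 differences from whole retina were 0.86 at E14 and 0.79 at P0. Endothelial sums were 1443 to 3686 in E14 Notch1+ cells against 1220 to 1324 in E14 Retina. At P0 they were 3313 to 6469 against 2077 to 2772. Pecam1, Cdh5, Esam and Flt1 were above background on no E14 Retina array. Of 3 pigment epithelium genes 2 were called lower in P0 Notch1+ cells, and none of the 4 lens genes and of the 2 microglia and blood genes was called at either stage. The part of these cell types in the values below was not tested. In such bulk samples fewer cells of a type and less RNA per cell cannot be told apart.

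At P0, Ccnd1 (1 of 4 probes), Ccnd2 (1 of 2) and Cdkn1c (its only probe) were called lower in Notch1+ cells than in P0 Retina. The factors lay between 2.05 and 2.83. With the mark of the repeated dip as a covariate the Ccnd2 and Cdkn1c calls were lost, and that of Cdkn1c was lost in 8 of 21 alternatives. At E14 no member probe passed the test. Between the stages, Cdkn1a (both probes) and Cdkn2c (1 of 2) were lower in E14 than in P0 whole retina. On that Cdkn2c probe the Notch1+ cells of E14 were also lower than those of P0. Ccnd3 was higher in E14 than in P0 whole retina on its only tested probe. In Notch1+ cells, Ccnd2 was called higher at E14 than at P0 on 1 of its 2 probes, a call lost in 12 of 20 alternatives.

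The counts stand beside those of all 13683 probes tested with limma, where a call is a Benjamini-Hochberg adjusted p under 0.05. In E14 Notch1+ cells against E14 Retina, 0 of 16 member probes were called, where 5.91% of all probes were. At an unadjusted limma p under 0.05 there were 8, 2 of them higher and 6 lower. The share of all probes at that threshold was not counted, so this number is not read as a result about the members. The methods' t-test gave 5 unadjusted (17.3% of all probes) and 0 after Benjamini-Hochberg adjustment (1.01% of all probes). In 9 of the 16 the intensities of the groups did not overlap, as in 25.6% of all probes. In P0 Notch1+ cells against P0 Retina, 3 were called, all lower (19.7% of all probes called, 10.7% lower), and 4 did not overlap (23.6% of all). In E14 against P0 Notch1+ cells, 1 was higher and 1 lower (11.1% called, 5.17% higher and 5.92% lower), and 4 did not overlap (24.1%). In E14 against P0 Retina, 1 was higher and 3 were lower (14.3% called, 6.61% higher and 7.67% lower), and 6 did not overlap (29.2%). The test of whether the contrast of Notch1+ cells with whole retina differed by stage called 0 member probes (2.47% of all), with 2 at an unadjusted p under 0.05, both of Cdkn1a. Here too the share of all probes at the unadjusted threshold was not counted. The share of members called was thus near that of all probes at P0 and in Notch1+ cells. Median log2 differences over the 16 probes were -0.30, -0.54, -0.23 and -0.21 in the 4 comparisons of groups, in the order above, where the medians over all probes were 0.01, 0.01, 0.01 and 0.00. The comparisons share groups of arrays and are not independent of each other.

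**Figure D1:**
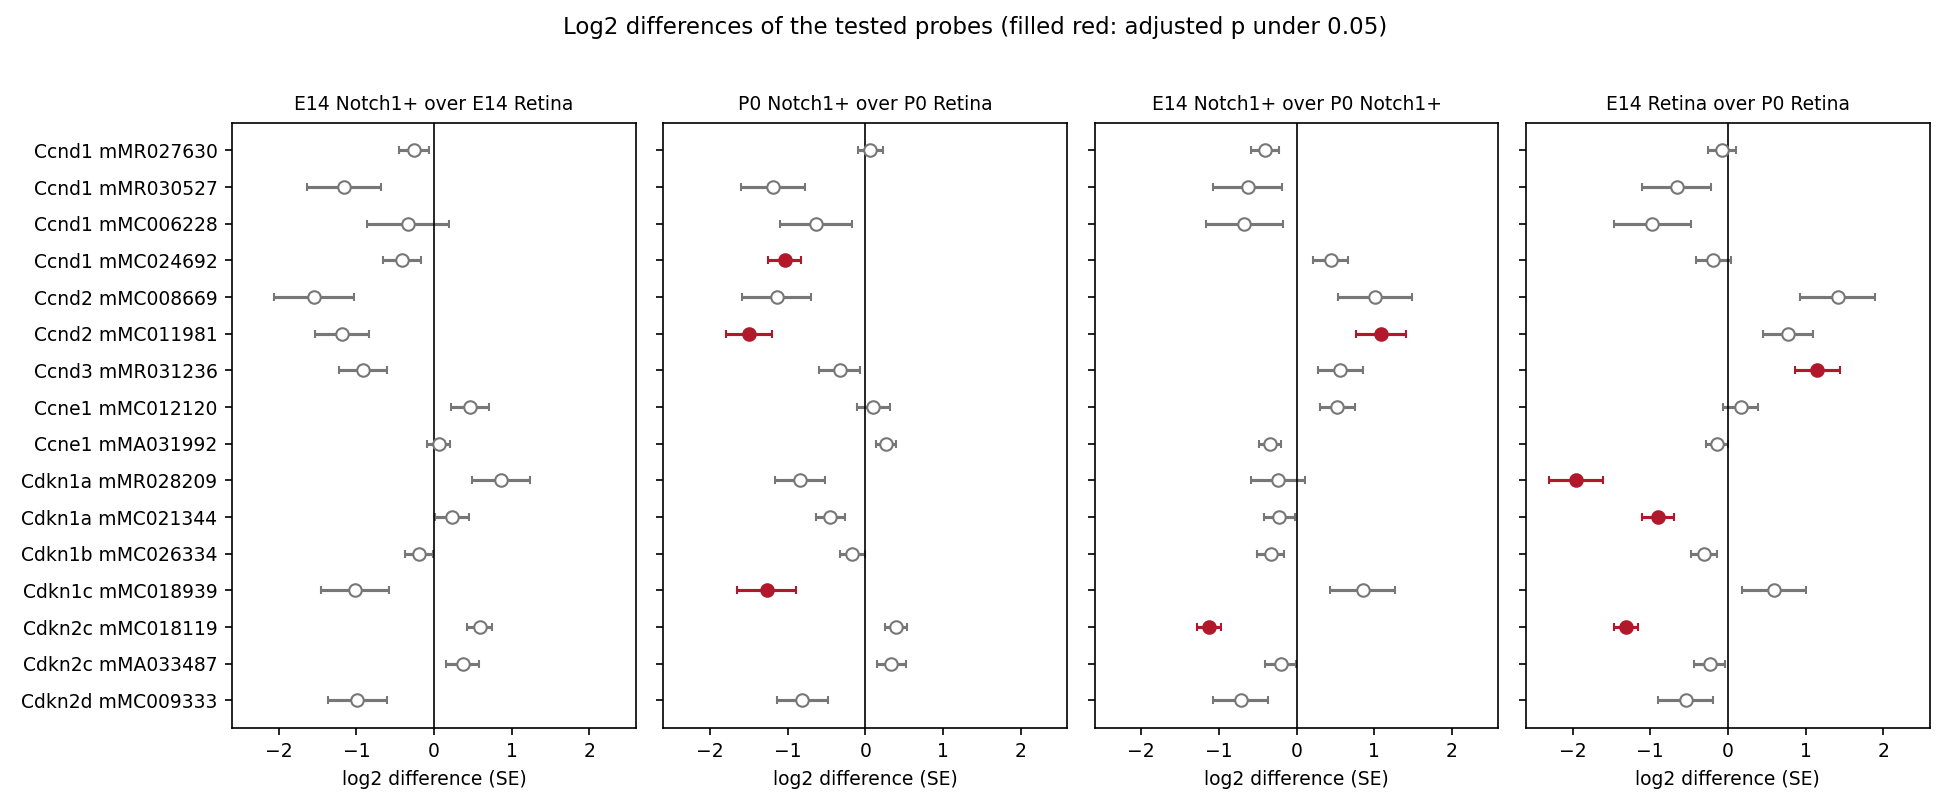
Log2 differences of the 16 tested probes (points, with the SE of the limma fit as bars) in each of the 4 comparisons of groups, with probes named on the vertical axis and filled red points at an adjusted p under 0.05. At P0, 3 filled points lie left of 0, and in E14 Retina against P0 Retina 3 lie left and 1 right.

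Ccnd1, the D cyclin of retinal progenitors, has 4 probes that did not behave alike. Probe mMC024692 gave intensities of 904, 826, 972 and 1109 in P0 Notch1+ replicates 1 to 4 and of 1528, 2568, 2313 and 1572 in P0 Retina replicates 1 to 4. All 4 Notch1+ arrays lay below all 4 of whole retina. The means were 952 ± 120 (SD, n = 4) and 1995 ± 525 (SD, n = 4), a log2 difference of -1.04 (SE 0.21, limma adjusted p = 0.00397), and it was called in each of the 21 alternatives run. At E14 the same probe had 1539, 1379 and 996 in Notch1+ cells and 2032, 1409 and 1737 in whole retina, where the arrays overlapped and the difference of -0.41 (SE 0.24, adjusted p = 0.404) did not pass the test.

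Probe mMR030527 of Ccnd1 had 4692, 2653, 5477 and 6746 in P0 Notch1+ cells and 14780, 15668, 3848 and 13798 in P0 Retina. P0 Retina replicate 3 lay among the Notch1+ arrays and far below the other 3 of its group. The log2 difference was -1.19 (SE 0.41, adjusted p = 0.0593), and without that array it was -1.67 (adjusted p = 0.00183), which is a call. It was also called with scaling to 1 median (-2.25, adjusted p = 0.00318), with scaling to 1 75th percentile (-1.93, adjusted p = 0.00746) and in the value table of the authors (-1.89, adjusted p = 0.00563). Of 21 alternatives 4 called it, and over all of them it ran from -2.25 to -0.92, with an adjusted p of up to 0.222. The same array decided the difference between E14 and P0 Retina, which was -0.66 (adjusted p = 0.361) with it and -1.14 (adjusted p = 0.0324) without it. At E14, values of 2219, 3468 and 3498 in Notch1+ cells all lay below 6410, 5565 and 8290 in whole retina, but the difference of -1.15 (SE 0.48, adjusted p = 0.199) did not pass the test.

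Probe mMC006228 of Ccnd1 had 3555, 2546, 1794 and 3156 in P0 Notch1+ cells and 12852, 2289, 1947 and 5205 in P0 Retina, so that P0 Retina replicate 1 was more than double the next array and the other values overlapped. The log2 difference was -0.64 (SE 0.46, adjusted p = 0.368), and without that array it was -0.09 (adjusted p = 0.886). Probe mMR027630 of Ccnd1 read near the end of the scale of the scanner. Its background-subtracted reading was 63918 to 65447 on the P0 Retina arrays, where 1 array had reached the limit of the scanner, against 25401 to 52799 on the P0 Notch1+ arrays. A difference at P0 can therefore not be read from it: its log2 difference was 0.07 (SE 0.17, adjusted p = 0.819) and became negative under scaling to 1 median (-0.47), scaling to 1 75th percentile (-0.15) and in the value table of the authors (-0.10), while cyclic loess gave 0.72 (adjusted p = 0.0521). Between E14 and P0 Notch1+ cells it was -0.41 (adjusted p = 0.164) and was called with cyclic loess alone (-0.96, adjusted p = 0.0385). At E14, where no array was at the limit, the difference was -0.26 (SE 0.19, adjusted p = 0.527).

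**Figure D2:**
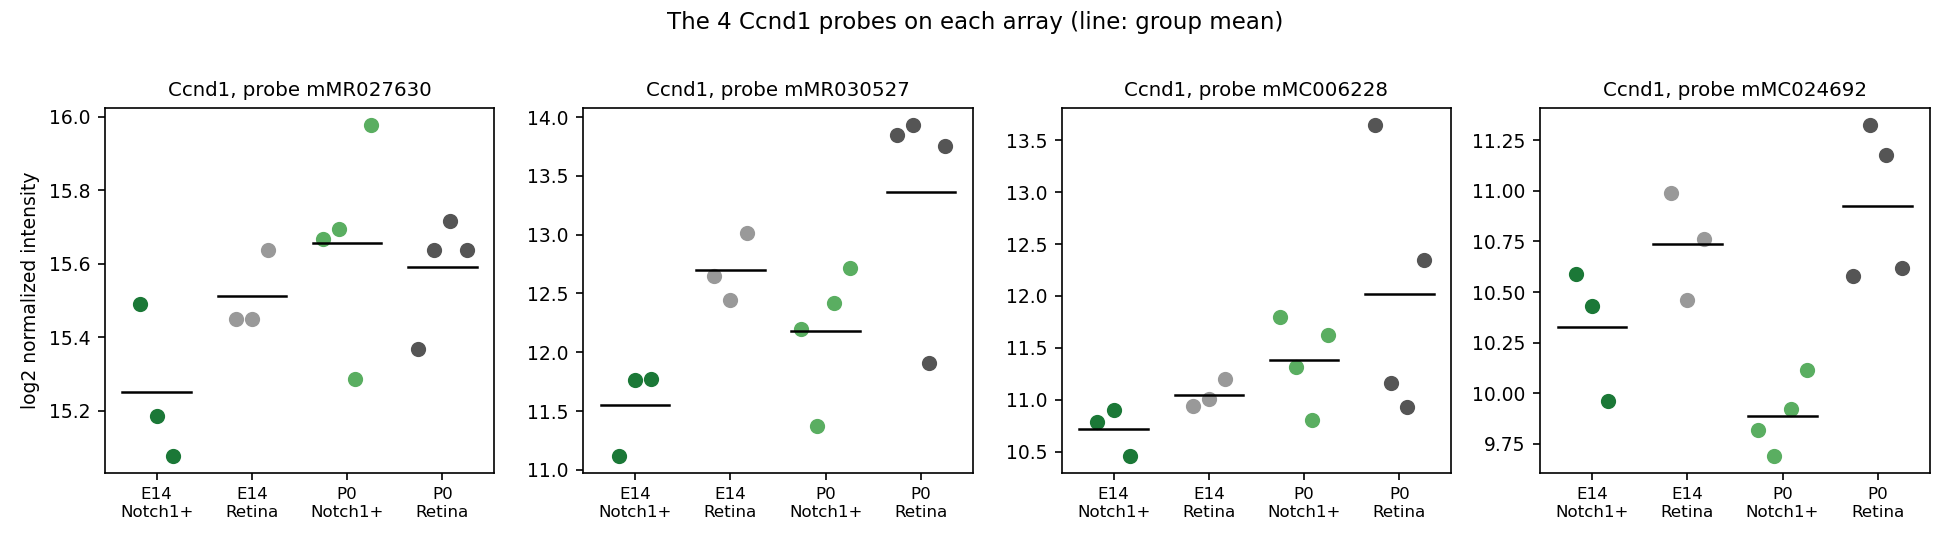
Log2 normalized intensity of the 4 Ccnd1 probes (1 panel each) on each of the 14 arrays, by group, with the group mean as a line. For mMC024692 the P0 Notch1+ arrays all lie below the P0 Retina arrays, and for mMR030527 P0 Retina replicate 3 lies apart from the other 3.

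Ccnd2, a D cyclin found in many kinds of embryonic progenitors, was called lower in P0 Notch1+ cells on 1 of its 2 probes. Probe mMC011981 gave 178, 214, 142 and 102 in P0 Notch1+ replicates 1 to 4 and 489, 518, 313 and 446 in P0 Retina. The groups did not overlap, and P0 Notch1+ replicates 3 and 4 were not above background. The log2 difference was -1.50 (SE 0.30, adjusted p = 0.00326). With the mark of the repeated dip as a covariate, which 3 of the 4 P0 Notch1+ arrays lack, it was -1.09 (adjusted p = 0.0920) and was no longer called.

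At E14 this probe had 558, 266 and 233 in Notch1+ cells and 618, 937 and 701 in whole retina. The arrays did not overlap, although Notch1+ replicate 1 was close to whole retina. The difference of -1.19 (SE 0.34, adjusted p = 0.0609) missed the threshold, and without E14 Notch1+ replicate 1 it was -1.57 (adjusted p = 0.0171). It was also called with scaling to 1 median (-1.45, adjusted p = 0.0272), with scaling to 1 75th percentile (-1.29, adjusted p = 0.0320) and with cyclic loess (-1.25, adjusted p = 0.0291). Of 19 alternatives 4 called it, and over all of them it ran from -1.57 to -0.94, with an adjusted p of up to 0.292. Between the stages, Notch1+ cells had more Ccnd2 at E14, by 1.09 on the log2 scale (SE 0.32, adjusted p = 0.0452). This call was lost in 12 of 20 alternatives, including those without E14 Notch1+ replicate 1 (0.70, adjusted p = 0.179), E14 Notch1+ replicate 2 (1.23, adjusted p = 0.0680), and P0 Notch1+ replicates 1 (1.16, adjusted p = 0.0591), 3 (1.05, adjusted p = 0.0886) and 4 (0.89, adjusted p = 0.112).

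The other Ccnd2 probe, mMC008669, pointed the same way with no call. It had 667, 217 and 391 in E14 Notch1+ cells, of which 667 was on a spot not above its local background, and 1162, 1392 and 869 in E14 Retina, with no overlap (log2 difference -1.54, SE 0.51, adjusted p = 0.104). At P0 it had 236, 344, 154 and 106 in Notch1+ cells, the last 2 of them not above background, and 603, 462, 189 and 596 in whole retina (-1.14, SE 0.45, adjusted p = 0.0904). P0 Retina replicate 3 was again the lowest of its group, and the difference was called without it (-1.53, adjusted p = 0.0233) or without P0 Notch1+ replicate 2 (-1.42, adjusted p = 0.0471). It was called as well with scaling to 1 median (-1.52, adjusted p = 0.0255) and in the value table of the authors (-1.75, adjusted p = 0.0379), and with the repeated dip as a covariate it was -0.26 (adjusted p = 0.795). Between E14 and P0 Retina the arrays did not overlap on either Ccnd2 probe, with differences of 1.41 (adjusted p = 0.0668) and 0.77 (adjusted p = 0.130).

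Ccnd3, the third D cyclin, was higher in E14 than in P0 whole retina on its only tested probe, mMR031236. The values were 2256, 1309 and 1570 in E14 Retina and 1007, 771, 645 and 633 in P0 Retina. All 3 E14 arrays lay above all 4 P0 arrays, and E14 Retina replicate 1 was the highest. The log2 difference was 1.15 (SE 0.29, adjusted p = 0.0174), and without E14 Retina replicate 1 it was 0.93 (adjusted p = 0.0846) and not called. E14 Notch1+ cells had 1076, 616 and 1038, all below E14 Retina, with a difference of -0.92 (SE 0.31, adjusted p = 0.106). P0 Notch1+ cells had 929, 549, 459 and 542, which overlapped P0 Retina (-0.33, SE 0.27, adjusted p = 0.426). Order of the group means was E14 Retina (1712 ± 489), E14 Notch1+ (910 ± 255), P0 Retina (764 ± 174) and P0 Notch1+ (620 ± 210). Between E14 and P0 Notch1+ cells the difference was 0.56 (SE 0.29, adjusted p = 0.226) and did not pass the test. E14 Notch1+ cells were not compared with P0 Retina.

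The E cyclins gave no call. Ccne1, which activates Cdk2 at the entry into S phase, had 394, 285 and 186 in E14 Notch1+ cells on probe mMC012120 and lay between 140 and 221 on the other 11 arrays. E14 Notch1+ replicates 1 and 2 were thus the highest of all, and replicate 3 was within the range of the other groups. The log2 differences were 0.46 (SE 0.24, adjusted p = 0.341) from E14 Retina and 0.52 (SE 0.23, adjusted p = 0.158) from P0 Notch1+ cells, and without E14 Notch1+ replicate 3 the latter was 0.81 (adjusted p = 0.0345). The latter was called in 2 of 20 alternatives and ran from 0.27 to 0.81, with an adjusted p of up to 0.501. The other Ccne1 probe, mMA031992, was above background on 3 arrays, all of P0. Both probes of Ccne2, the other E cyclin, were above background on none of the 14 arrays, which is a limit of these probes and does not show that the transcript is absent.

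Cdkn1a, the Cip/Kip inhibitor induced by p53, was lower in E14 than in P0 whole retina on both probes. Probe mMR028209 gave 149, 241 and 206 in E14 Retina, the first of them not above background, and 596, 973, 1132 and 488 in P0 Retina. The groups were far apart, with a log2 difference of -1.95 (SE 0.35, adjusted p = 0.00248), or 3.87-fold. Probe mMC021344 read 111, 104 and 131 in E14 Retina, above background on none of these arrays, and had 187, 226, 206 and 242 in P0 Retina, 1.60-fold higher by a bound (fitted log2 difference -0.90, SE 0.20, adjusted p = 0.00994). The bound sets P0 Retina against, on each E14 Retina array, the higher of the probe's own signal and the lowest signal of any probe above background. It does not use the background of the spot itself and takes no account of the spread between arrays. Both calls were kept in all 20 alternatives run.

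In Notch1+ cells Cdkn1a was not called between the stages. Probe mMR028209 had 425, 378 and 279 in E14 Notch1+ cells and 282, 642, 308 and 552 in P0 Notch1+ cells, which overlapped (-0.24, SE 0.35, adjusted p = 0.711). E14 Notch1+ cells lay above all E14 Retina arrays (0.87, SE 0.37, adjusted p = 0.218), and at P0 the sign was the other way (-0.85, SE 0.32, adjusted p = 0.0841). The difference between these differences was 1.71 (SE 0.49, adjusted p = 0.0835) and was not called, but it was called with scaling to 1 median (2.20, adjusted p = 0.0163), with scaling to 1 75th percentile (2.04, adjusted p = 0.0309) and in the value table of the authors (2.55, adjusted p = 0.0268). Those were 3 of 24 alternatives, over which it ran from 1.52 to 2.55, with an adjusted p of up to 0.190. The P0 difference alone was called with scaling to 1 median (-1.50, adjusted p = 0.00214), scaling to 1 75th percentile (-1.18, adjusted p = 0.0145) and cyclic loess (-0.97, adjusted p = 0.0466), and in the value table of the authors (-1.38, adjusted p = 0.0169). It was also called without P0 Notch1+ replicate 2 (-1.05, adjusted p = 0.0435) or P0 Retina replicate 4 (-1.05, adjusted p = 0.0465). These were 6 of 21 alternatives, over which it ran from -1.50 to -0.57, with an adjusted p of up to 0.461. On mMC021344 the P0 difference was -0.45 (SE 0.19, adjusted p = 0.112) and was called with scaling to 1 median (-0.70, adjusted p = 0.00742), with cyclic loess (-0.55, adjusted p = 0.0429) and without P0 Notch1+ replicate 4 (-0.59, adjusted p = 0.0451). Those were 3 of 21 alternatives, over which it ran from -0.83 to -0.31, with an adjusted p of up to 0.430.

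Genes of other cell types moved with Cdkn1a between E14 and P0 Retina. Of 8 amacrine and horizontal cell genes 6 were called lower at E14 and 0 higher, with sums of 2091 to 2751 in E14 Retina and 5272 to 12746 in P0 Retina. Of 6 photoreceptor genes 5 were called lower at E14, with sums of 1115 to 1239 and of 4116 to 10864. Ganglion cell and young neuron genes went the other way, with 7 of 10 called higher at E14. Their part in the Cdkn1a values was not tested.

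Cdkn1c, the Cip/Kip inhibitor of cells leaving the cycle, was lower in P0 Notch1+ cells than in P0 Retina. Its only probe, mMC018939, gave 1830, 1750, 1628 and 3533 in P0 Notch1+ replicates 1 to 4 and 3940, 4207, 5860 and 6412 in P0 Retina. The groups did not overlap, and P0 Notch1+ replicate 4 was close to the lowest whole retina array. The log2 difference was -1.27 (SE 0.38, adjusted p = 0.0322). It kept its sign in all 21 alternatives and was no longer called in 8 of them, with -0.80 (adjusted p = 0.348) when the mark of the repeated dip was a covariate. Leaving out P0 Notch1+ replicate 1 (-1.21, adjusted p = 0.0739), 2 (-1.19, adjusted p = 0.0737) or 3 (-1.15, adjusted p = 0.0803), or P0 Retina replicate 3 (-1.19, adjusted p = 0.0778) or 4 (-1.15, adjusted p = 0.0854), also ended the call.

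At E14 the spread of Cdkn1c among Notch1+ arrays was wide. Values were 4006, 1710 and 7586 in E14 Notch1+ cells and 6158, 8842 and 7881 in E14 Retina. Replicate 3 of the Notch1+ cells lay within the whole retina range. The difference was -1.02 (SE 0.44, adjusted p = 0.225), and without that replicate it was -1.53 (adjusted p = 0.0483). That was 1 call in 19 alternatives, over which it ran from -1.53 to -0.45, with an adjusted p of up to 0.591. The stages did not differ past the threshold in Notch1+ cells (0.85, adjusted p = 0.205) or whole retina (0.59, adjusted p = 0.376).

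Cdkn1b, the third Cip/Kip inhibitor, was close to background. Probe mMC026334 was above background on 0 of 3 E14 Notch1+ arrays, 1 of 3 E14 Retina arrays and all 8 P0 arrays, where it lay between 156 and 253. All 4 P0 Notch1+ arrays (156 to 195) were above the 3 E14 Notch1+ readings (126 to 152), 1.19-fold higher at P0 by the bound described for Cdkn1a. This did not pass the test (adjusted p = 0.226). Its other probe was above background on no array.

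Cdkn2c, the INK4 inhibitor also called p18, was lower at E14 than at P0 in both kinds of sample. Probe mMC018119 gave 1764, 1404 and 1390 in E14 Notch1+ cells and 3779, 3294, 3356 and 2802 in P0 Notch1+ cells. It gave 1011, 967 and 1040 in E14 Retina and 2455, 2843, 2252 and 2477 in P0 Retina. Within each kind of sample the stages were well apart, with replicates close together. The log2 differences were -1.12 (SE 0.15, adjusted p = 0.000764) in Notch1+ cells and -1.31 (SE 0.15, adjusted p = 0.000130) in whole retina. The call in whole retina was kept in all 20 alternatives, and that in Notch1+ cells was lost only with scaling to 1 median (-0.55, adjusted p = 0.0740).

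At E14 all 3 Notch1+ arrays of Cdkn2c were above all 3 of whole retina (0.59, SE 0.17, adjusted p = 0.0541) on arrays of 1 scan day. That difference was called with cyclic loess (0.61, adjusted p = 0.0293) and with no filter on dim probes (adjusted p = 0.0168). Over 19 alternatives it ran from 0.38 to 0.65, with an adjusted p of up to 0.328. At P0 the difference of 0.40 (SE 0.14, adjusted p = 0.0681) was called without P0 Notch1+ replicate 4 (0.47, adjusted p = 0.0475), but its sign turned with scaling to 1 median (-0.44), scaling to 1 75th percentile (-0.12) and in the value table of the authors (-0.07). The difference between the stages in this contrast was 0.19 (SE 0.22, adjusted p = 0.704). The other probe, mMA033487, was above background on 5 arrays and gave no call.

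Cdkn2d, the INK4 inhibitor also called p19, gave 676, 321 and 539 in E14 Notch1+ cells and 732, 1512 and 825 in E14 Retina on probe mMC009333. It gave 987, 934, 498 and 915 in P0 Notch1+ cells and 1841, 1948, 1121 and 988 in P0 Retina. At both stages all Notch1+ arrays lay below all whole retina arrays, at P0 by a margin of 987 against 988. The E14 difference of -0.99 (SE 0.38, adjusted p = 0.165) did not pass the test, nor did that of -0.81 at P0 (SE 0.33, adjusted p = 0.103). The P0 difference was called in 3 of 21 alternatives. These were scaling to 1 median (-1.52, adjusted p = 0.00797), scaling to 1 75th percentile (-1.20, adjusted p = 0.0229) and the value table of the authors (-1.27, adjusted p = 0.0242). Over the 21 the difference ran from -1.52 to -0.38, with an adjusted p of up to 0.626. Scaling to 1 median called 27.6% of all probes lower at P0, against 10.7% with quantile normalization.

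**Figure D3:**
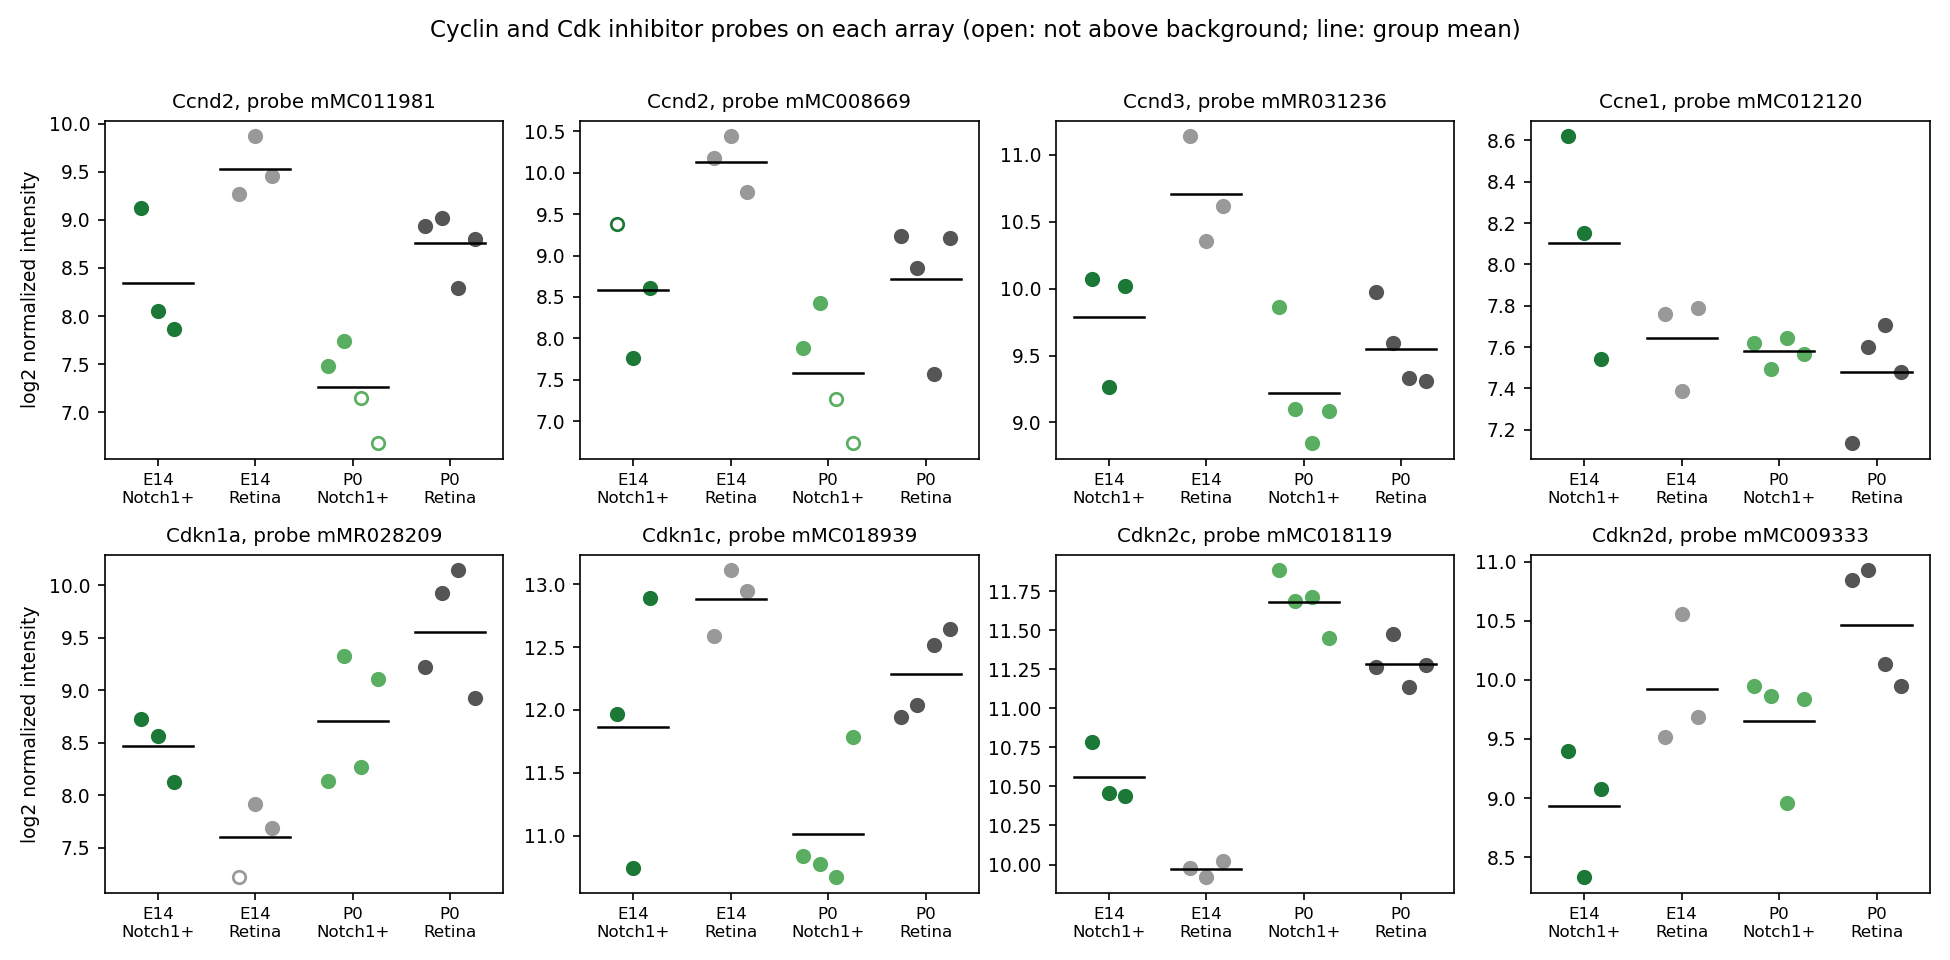
Log2 normalized intensity of 8 probes of 7 members on each of the 14 arrays, by group, with open points where the spot was not above background and a line at the group mean. Cdkn1a and Cdkn2c stand higher in P0 Retina than in E14 Retina, and Ccnd2 mMC011981 and Cdkn1c stand lower in P0 Notch1+ cells than in P0 Retina.

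Of 26 other genes of the G1/S transition (kinases, retinoblastoma proteins, E2f factors and regulators of Cdk2), called partners here, 18 were tested on their brightest tested probe. In P0 Notch1+ cells against P0 Retina, 6 were higher and 0 lower, with a median log2 difference of 0.55, where 8.97% of all probes were called higher and 10.7% lower. The other 12 were not called, and E2f1 (-0.42), E2f6 (-0.24) and Tfdp1 (-0.25) had negative values among them. The partners were not tested against the members. With scaling to 1 median this was 2 higher and 1 lower with a median of -0.11 (all probes -0.37), and with scaling to 1 75th percentile or in the value table of the authors 2 higher and 0 lower. At E14, 1 was higher and 0 lower in Notch1+ cells. In E14 against P0 Notch1+ cells 4 were higher and 3 lower, and in E14 against P0 Retina 4 were higher and 1 lower. No partner was called for a difference between the stages in the contrast of Notch1+ cells with whole retina. The partners and the cycling cell genes below were not rerun with the repeated dip as a covariate or with arrays left out, as the members were.

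E2f2, a transcription factor that the retinoblastoma protein holds back, was higher in Notch1+ cells at E14 (log2 difference 0.82, adjusted p = 0.0237) and at P0 (1.45, adjusted p = 6.58e-05). The P0 difference was smaller with scaling to 1 median (0.64, adjusted p = 0.0204), and the E14 difference was then not called (0.63, adjusted p = 0.110), nor was it in the value table of the authors (0.85, adjusted p = 0.0700). In Notch1+ cells E2f2 was called lower at E14 than at P0 (-0.61, adjusted p = 0.0473), which was lost with scaling to 1 median (-0.04), with scaling to 1 75th percentile (-0.24) and in the value table (-0.21). Cks1b, a small subunit of Cdk complexes, was higher in P0 Notch1+ cells than in P0 Retina (1.42, adjusted p = 0.000844) and higher in E14 than in P0 Retina (1.55, adjusted p = 0.00126). Fbxw7, which marks cyclin E for degradation, was higher in P0 Notch1+ cells than in P0 Retina (0.99, adjusted p = 0.0129) and was lower at E14 than at P0 in Notch1+ cells (-1.58, adjusted p = 0.00284).

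Cdc25a, the phosphatase that activates Cdk2, was higher in E14 than in P0 Retina (1.86, adjusted p = 0.000338), at E14 than at P0 in Notch1+ cells (0.85, adjusted p = 0.0448), and in P0 Notch1+ cells than in P0 Retina (0.79, adjusted p = 0.0287). The P0 calls of Cdc25a and Fbxw7 were lost with scaling to 1 median (0.18 and 0.35), with scaling to 1 75th percentile (0.50 and 0.66) and in the value table of the authors (0.58 and 0.77). The Cdc25a call between stages in Notch1+ cells was lost with cyclic loess (0.86, adjusted p = 0.0532). E2f3 had a higher intensity at E14 in whole retina (1.70, adjusted p = 4.39e-05) and in Notch1+ cells (0.95, adjusted p = 0.00477). Skp2, which targets Cdkn1b for degradation, was likewise higher at E14 in whole retina (1.62, adjusted p = 0.00261) and in Notch1+ cells (1.09, adjusted p = 0.0299). Among 18 genes of cycling cells, all tested, 4 were called in P0 Notch1+ cells against P0 Retina, 1 in E14 Notch1+ cells against E14 Retina, 2 in E14 against P0 Retina and 1 in E14 against P0 Notch1+ cells. All of these were higher in the group named first, and none was lower. The shares of all probes called higher were 8.97%, 2.67%, 6.61% and 5.17%, in that order. The median of the 18 genes at P0 was 0.39 and turned to -0.12 with scaling to 1 median, where all probes had a median of -0.37. With that scaling 1 was called higher at P0, and with scaling to 1 75th percentile or in the value table of the authors 2 were. At E14 0 were called under these settings.

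**Figure D4:**
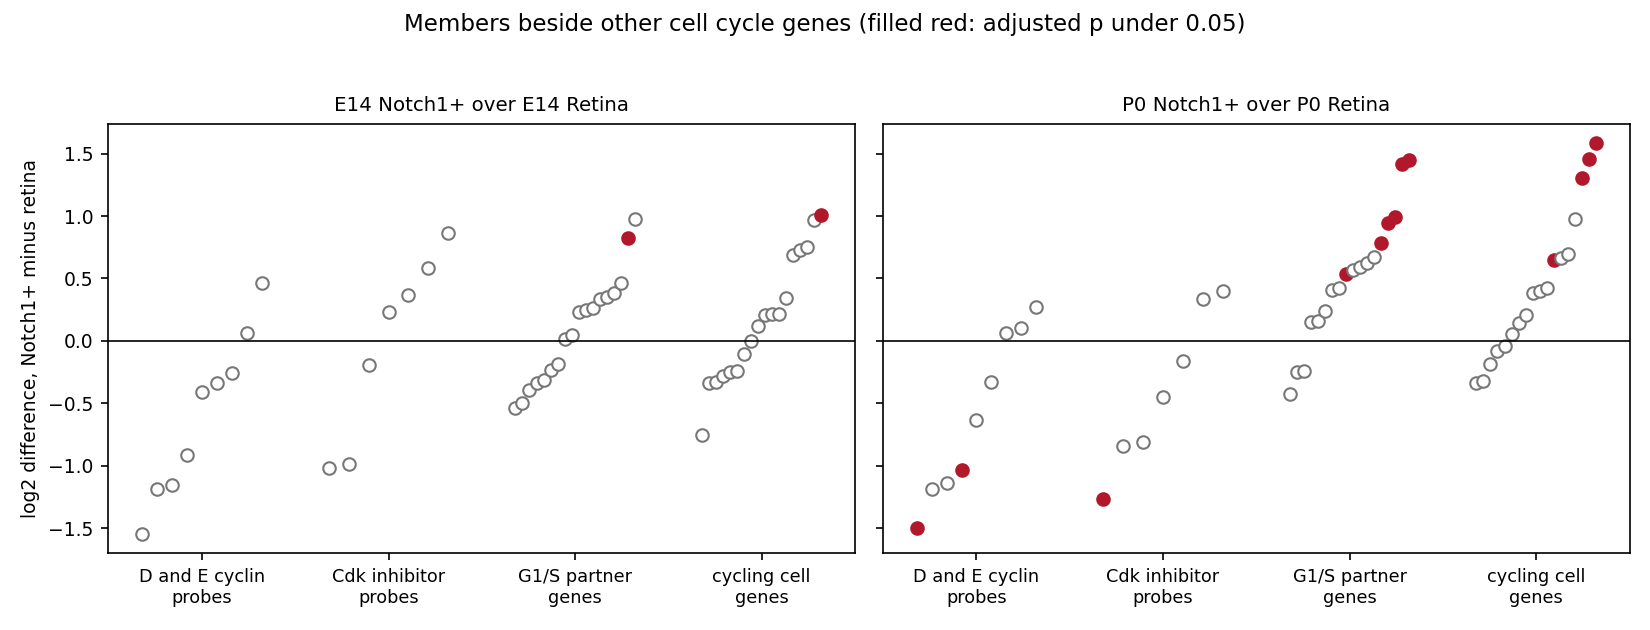
Log2 differences of Notch1+ cells from whole retina at E14 (left) and P0 (right) for the tested D and E cyclin probes, Cdk inhibitor probes, G1/S partner genes and cycling cell genes, each ordered by value, with filled red points at an adjusted p under 0.05. At P0, with quantile normalization, the 3 called cyclin and inhibitor probes lie below 0 and the called partner (6) and cycling cell genes (4) above it.

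The probes whose log2 intensity was most like that of Ccnd1 mMR030527 over the 14 arrays were of Ica1l (Pearson r = 0.887), Tmem59l (0.884), Sorl1 (0.879) and Chrnb3 (0.873). Those most like Cdkn1c were of Bzw2 (0.863), Epb41l3 (0.861), Efnb3 (0.859) and Ecpas (0.846). These correlations are over 14 arrays of 4 groups that share stage and scan day, and are given as a description.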

How the data were processed

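RNA of 14 samples was hybridized to 1-colour MEEBO arrays of 38880 spots, 34312 of them mouse probes. The authors scanned them with GenePix Pro 4.1.1.4 and deposited spot intensity with local background, and a log2 table in which the median minus background, set to 1 where it was lower, was multiplied by 1 factor per array. That table was used only as an alternative.

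Spots with a flag of -75 or below were left out, intensities were corrected with normexp (offset 50), normalized to common quantiles and log2-transformed. A spot was above background if it exceeded local background by 2 SD of the background, and the 13683 probes that passed this on 3 or more arrays entered a model of 4 group means in limma 3.58.1 (R 4.3.3), with Benjamini-Hochberg adjustment over all of them and a threshold of 0.05. The script was tested on simulated data. Alternatives were scaling to 1 median or 1 75th percentile, cyclic loess, other background correction, the value table, no filter, fits of fewer arrays, the replicate number as a block, the repeated dip as a covariate, the methods' t-test, and each array left out.

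Groups came from the sample labels. The study calls the samples of a group independent biological replicates, and its methods describe pooled eyes for the preparations of Notch1+ cells. The members and the lists of partner, cycling and cell type genes were chosen with earlier results of these data known. All members are described, and of the partners the 6 called in the most comparisons are named, with ties broken by the smallest adjusted p. The number of arrays limits the precision, and the probes are on several positions of a gene, so levels of different probes were not compared.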

Additional observations from a re-analysis of the deposited data

Results flagged for a closer look

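In groups of 4 arrays, on the log2 scale, the gap of the highest or lowest array to its nearest neighbour was divided by the range of the group and set against the 95% critical value of Dixon. It was passed in 4 of 32 sets of 4 arrays, and chance alone passes it in about 1 of 20. For Ccnd1 mMR030527 in P0 Retina the ratio was 0.909, where replicate 3 had 3848 and the next array 13798. For Cdkn1c in P0 Notch1+ cells it was 0.849, where replicate 4 had 3533 and the next array 1830. For Cdkn2d mMC009333 in P0 Notch1+ cells it was 0.889, where replicate 3 had 498 and the next array 915. For Cdkn2c mMA033487 in P0 Retina it was 0.966, where replicate 3 had 119 and the next array 137, a difference of little size on a probe close to background.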

How the results depend on the processing

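Counts are of member probes called, out of the 16 tested and, with no filter, out of all 22. At E14 (0), it was 1 with scaling to 1 median, 1 with scaling to 1 75th percentile, 2 with cyclic loess, 1 with no filter, 5 with the methods' t-test unadjusted, and 0 to 1 with an array left out. At P0 (3) it was 9, 7, 5 and 7 with scaling to 1 median, to 1 75th percentile, cyclic loess and the value table, 1 with the repeated dip as a covariate, 5 with the unadjusted t-test, and 2 to 5 with an array left out. The share of all probes called at P0 (19.7%) was 29.9%, 22.8%, 18.5% and 22.3% under those 4 settings and 9.0% with the dip. In E14 against P0 Notch1+ cells (2) it was 4, all higher, with scaling to 1 median, 1 with scaling to 1 75th percentile, 6 with no filter, 1 with only those groups, 1 with the dip, 1 with the t-test after Benjamini-Hochberg, and 1 to 3 with an array left out. In E14 against P0 Retina (4) it was 8 with no filter, 7 with the unadjusted t-test and 3 to 5 with an array left out. The difference between stages (0) gave 2, 1 and 1 with scaling to 1 median, to 1 75th percentile and the value table, and 0 with any array left out. The 6 probes added with no filter were above background on fewer than 3 arrays. With no filter 5.07%, 13% and 12% of all 34312 probes were called at E14, and between stages in Notch1+ cells and whole retina. At E14, 6.56%, 6.45% and 6.97% of all probes were called with scaling to 1 median, to 1 75th percentile and cyclic loess. For the difference between stages, scaling to 1 median, to 1 75th percentile and the value table called 4.32%, 3.27% and 3.12%. The unadjusted t-test called 17.3%, 29.8% and 27.4% of all probes at E14, at P0 and between stages in whole retina. In E14 against P0 Notch1+ cells, scaling to 1 median called 10.9% of all probes higher and 2.14% lower. Scaling to 1 75th percentile called 9.57% there, and the fit of only those groups 5.65%. The dip gave 7.45% and the t-test after Benjamini-Hochberg 3.15%. The cause of these changes in count was not tested.

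Replicate numbers did not pair the arrays (correlations of deviations -0.07 to 0.12). With the replicate number as a block the counts were 1 at E14 (Ccnd3, -0.92, adjusted p = 0.0400), 3 at P0, 1 in Notch1+ cells, 4 in whole retina and 0 for the difference between stages. That fit called 4.9%, 18.1%, 7.1%, 11.3% and 1.43% of all probes, in the same order. Signs turned for Ccnd1 mMR027630 at P0 (-0.47, -0.15 and -0.10 with scaling to 1 median, to 1 75th percentile and the value table, and -0.041 to 0.19 with an array left out, negative without P0 Notch1+ replicate 4 or P0 Retina replicate 1) and between stages in whole retina (0.075 with cyclic loess), and for Cdkn2c mMC018119 at P0 (-0.44, -0.12 and -0.074 under the same 3 settings).

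Scaling to 1 median moved the median of all probes to -0.37 at P0, -0.14 at E14 and 0.26 in Notch1+ cells between stages. At P0 it called 320 probes higher and 3777 lower, against 1227 and 1467, and the value table gave 780 and 2273. In Notch1+ cells between stages it called 1488 higher and 293 lower, against 708 and 810, and the value table gave 1188 and 782.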
